A study of Dorcoceras hygrometricum with 51 samples.

Results

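Dried leaves of the resurrection plant B. hygrometrica (Boea hygrometrica) from a first, slow and a second, rapid dehydration, both of which the plants survive, were compared in 6 of the 39 RNA-seq libraries of the series. SD are leaves of greenhouse seedlings that had never been dried and were then dehydrated slowly in their soil. AD are leaves of plants that had gone through that slow soil-drying and been re-watered (acclimated plants, A), and were then taken out of the soil and dried rapidly in air. The 3 AD and 3 SD libraries were chosen by these labels alone. Each is 1 biological replicate that pools leaves of several plants, grown from mixed seed of a wild, mainly outcrossing population. The expression table holds levels as FPKM, mapped fragments scaled by transcript length and library size, for 26693 genes. Where a level in another state helps to read a value, 3 further groups of 3 libraries are given: fresh plants that were never dried (F), acclimated fresh plants (A), and never-dried plants put through the same rapid air-drying (FD). AD differs from SD both in how the water was lost, fast in air against slowly in soil, and in history, a second against a first dehydration, and the AD/SD comparison cannot tell these apart. No nucleotide or protein sequences are shown.

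Resurrection plants lose nearly all the water of their leaves and resume growth when re-watered. While they dry they dismantle or protect the photosynthetic apparatus, pack the cytoplasm with sucrose and raffinose-family sugars, and accumulate late embryogenesis abundant (LEA) proteins, which shield membranes and proteins, and early light-induced proteins (ELIPs), thylakoid proteins that bind free chlorophyll. The hormone abscisic acid drives much of this programme in slowly drying tissue, and jasmonate is the hormone of wounding and sudden mechanical or osmotic stress.

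The dried states were far apart. Pearson's correlation of log2(FPKM + 1) over 18736 genes ran from 0.959 to 0.969 between libraries of 1 state and from 0.815 to 0.861 between an AD and an SD library. The values entered a limma fit of the means of all 13 RNA groups. A gene is up- or down-regulated in AD/SD, that is, higher or lower in AD, if it changed by 1 or more on the log2 scale with a Benjamini-Hochberg adjusted p no larger than 0.05. SE is the standard error of a log2 fold change. By this rule 1886 genes (10.1% of the 18736 tested) were up-regulated and 3253 (17.4%) were down-regulated. The AD and SD libraries did not overlap for 1844 of the former and 3165 of the latter. These genes were already selected for their difference, and the share over all genes is not given, so the counts are no further evidence. The largest changes lay on the side of AD: 375 up-regulated genes lay at 3 or beyond on the log2 scale, against 73 down-regulated genes at -3 or beyond. Of the up-regulated genes 113 were listed at 0 in all 3 SD libraries, and of the down-regulated genes 42 were listed at 0 in all 3 AD libraries. In these bulk leaves fewer cells of a type and less RNA per cell cannot be told apart.

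The balance of directions depended on how the libraries were scaled. FPKM of the SD libraries summed to 866340 to 910003 and those of AD to 947282 to 958007, and 13960 to 14113 genes reached 1 FPKM in SD against 14319 to 14438 in AD. The median log2 fold change of all genes was -0.18. After scaling each library by its median ratio to the other libraries (factors 1.11 to 1.24 in SD and 0.867 to 0.880 in AD) it was 0.04, with 2744 genes up- and 1733 down-regulated, so that 61.3% instead of 36.7% of the calls were up. All 1886 genes called up-regulated on the deposited values were called so after scaling, 1733 of the 3253 down-regulated genes were, and 0 genes changed direction. Counts below are therefore given on the deposited values and again after scaling. For the former the shares over all genes are 10.1% up and 17.4% down. For the latter the counts over all genes are 2744 up and 1733 down of 18736.

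**Figure D1:**
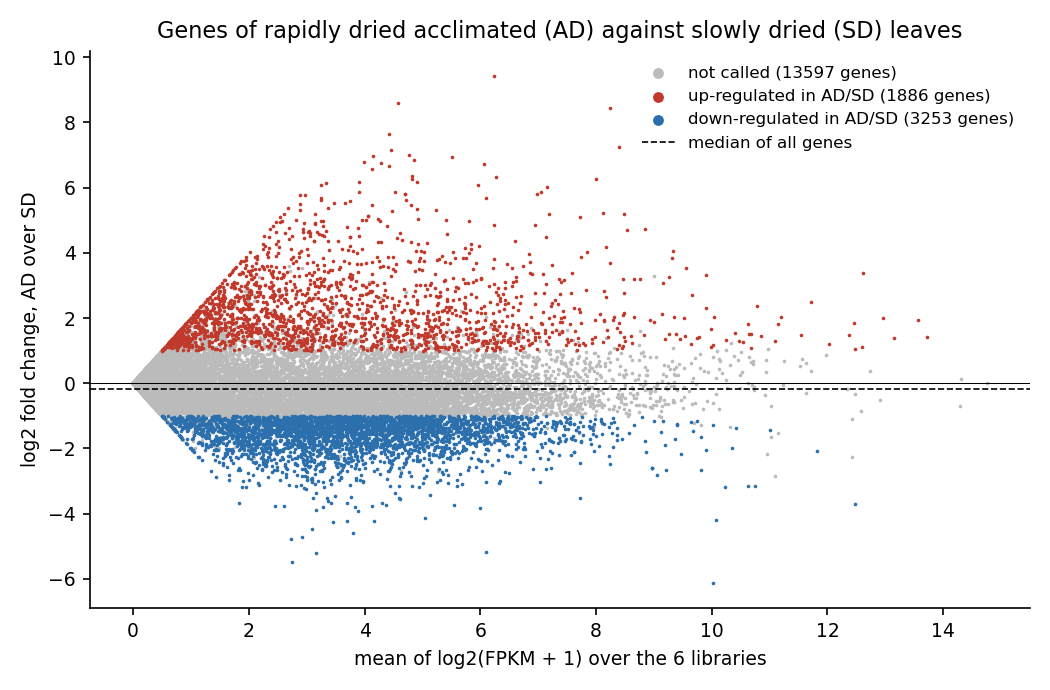
Each point is 1 of 18736 genes, placed by its mean level over the 6 libraries (x axis, log2(FPKM + 1)) and by its log2 fold change of AD over SD (y axis). Red and blue points mark the 1886 up- and 3253 down-regulated genes, the dashed line is the median of all genes (-0.18), and the up-regulated genes reach further from it than the down-regulated ones.

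ELIP transcripts, which were abundant in SD, were lower in AD where they passed. Of 18 ELIP genes tested, 0 were up- and 7 down-regulated (0 and 5 after scaling), with a median log2 fold change of -2.17 (-1.77 after scaling). At an unadjusted p under 0.05 in the limma fit, 0 were higher and 11 lower by at least 1 on the log2 scale. The mean was at 1000 FPKM or more for 13 members in SD and for 2 in AD. A set of 3 among the 18 (KZV49260, KZV34379 and KZV16213) share all their values and stand for 1 measurement, so that the list holds 16 distinct profiles. All 3 are among the 7 down-regulated genes, among the 5 after scaling and among the 13 at 1000 FPKM or more in SD. Each of these counts therefore includes 1 measurement 3 times. In all other counts of ELIP genes below the 3 are likewise entered as 3 genes.

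KZV38649 had the largest fall of the genes named here, with 28.9, 172 and 373 FPKM in AD and 9582, 9079.6 and 7356 FPKM in SD (log2 fold change -6.11, SE 1.25, adjusted p = 3.2e-04). Its AD libraries differed more than 10-fold among themselves and all lay far below SD. FD stood at 345 ± 58.7 FPKM (mean ± standard deviation, n = 3, here and for other groups below) and F at 15.1 ± 2.43 FPKM. KZV20247, the most abundant ELIP, had 2405, 1662 and 4008 FPKM in AD and 19752, 11569 and 7661 FPKM in SD (log2 fold change -2.26, SE 1.03, adjusted p = 0.091), a difference that did not pass the threshold although the libraries of the groups did not overlap, and that passed in a fit of the 6 libraries alone. FD was at 172 ± 78 FPKM and F at 44.1 ± 8.11 FPKM, and AD lay between SD and these rapidly dried non-acclimated leaves. In AD/FD 12 ELIP genes were up-regulated in AD and 0 down-regulated, with the same numbers after scaling (over all genes 6.89% and 8.92% were). The number of ELIP genes down-regulated in AD/SD rested on single libraries: it was 5 without AD replicate 1, 1 without AD replicate 2, 8 without AD replicate 3, 7 without SD replicate 1 and 2 without SD replicate 2 or SD replicate 3.

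LEA genes were up-regulated more often than down-regulated. Of 26 tested, 12 were up- and 1 down-regulated, with the same numbers after scaling, and the median log2 fold change was 0.90 (1.32 after scaling). KZV56073, a LEA protein 1-like gene, had 4088, 5835 and 7595 FPKM in AD and 11.6, 5.32 and 51.7 FPKM in SD (log2 fold change 8.45, SE 0.92, adjusted p = 5.9e-08). KZV54810, a homologue of the carrot LEA gene Dc3, had 3373, 4709 and 4527 FPKM in AD and 8.74, 26.3 and 75.1 FPKM in SD (log2 fold change 7.25, SE 0.88, adjusted p = 3.1e-07). Both were far above 1000 FPKM in every AD library and under 100 FPKM in every SD library. F was at 13.4 ± 11.4 FPKM and 5.89 ± 5.29 FPKM for these genes and FD at 5332 ± 831 FPKM and 2492 ± 426 FPKM. KZV57972, LEA protein D-29, was at or near 0 in SD, with 122, 45.4 and 51.6 FPKM in AD and 0, 0 and 1.46 FPKM in SD (log2 fold change 5.63, SE 0.51, adjusted p = 2.8e-09).

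Among the most abundant genes of these libraries some LEA genes did not separate the states. KZV56069, LEA protein 76-like, had 24792, 30209 and 28812 FPKM in AD and 21797, 36264 and 26526 FPKM in SD (log2 fold change 0.01, SE 0.47, adjusted p = 1), and the groups overlapped. The dehydrin KZV33446 (Xero 1-like) was lower in each AD library, with 13454, 16855 and 17237 FPKM in AD and 20517, 28663 and 27787 FPKM in SD, and did not pass (log2 fold change -0.69, SE 0.50, adjusted p = 0.31). KZV36405, a maturation polypeptide and one of the 5 most abundant genes of these 6 libraries, was up-regulated, with 20622, 26432 and 23941 FPKM in AD and 6231, 6545 and 5807 FPKM in SD (log2 fold change 1.93, SE 0.53, adjusted p = 5.3e-03). The member of the list that was down-regulated was the seed maturation protein PM36 gene KZV26989, with 12.5, 16.4 and 21.3 FPKM in AD and 66.4, 64.1 and 69.3 FPKM in SD (log2 fold change -1.96, SE 0.45, adjusted p = 9.6e-04).

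A group of 7 LEA genes that lie within 53.7 kb of 1 scaffold held 5 up-regulated and 2 uncalled genes. They were looked at together after their values were seen. KZV56073 stood between KZV56072 (log2 fold change 3.39) and KZV56074 (2.00), both LEA protein 76-like and up-regulated. KZV56066 (1.41, adjusted p = 0.036) and KZV56068 (1.38), both LEA protein 1-like, were up-regulated as well, and KZV56068 lost its call when no filter on low values was applied. For KZV56066 the call was lost when any of the AD libraries or SD replicate 1 or SD replicate 3 was left out, with log2 fold changes of 1.27 to 1.56 over the leave-outs, and also without a filter on low values or in a fit of the 6 libraries alone. KZV56069 (0.01) and KZV56071 (-0.16), a Dc3 homologue with 4269, 5131 and 5393 FPKM in AD and 4211, 6725 and 5872 FPKM in SD, were not called. Where genes are close copies, the counting can split reads between them in ways that the FPKM do not show. How alike these 7 genes are in sequence was not examined, and sharing of reads was not tested.

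Small heat shock proteins, which keep damaged proteins from clumping, were up-regulated in AD where they passed. Of 13 small heat shock protein genes 5 were up- and 0 down-regulated (6 and 0 after scaling). By at least 1 on the log2 scale, 0 were lower at an unadjusted p under 0.05 by limma. The count of up-regulated genes was 2 without AD replicate 1 and 3 without SD replicate 1. G001726, a class I protein of 17.3 kDa, had 37.6, 28.3 and 24.9 FPKM in AD and 0.96, 1.65 and 2.86 FPKM in SD (log2 fold change 3.50, SE 0.64, adjusted p = 9.3e-05). Of 23 heat shock factor genes 4 were up- and 1 down-regulated, with the same numbers after scaling, and 18 were not called. The median log2 fold change of these factors was 0.11, and 2 were down-regulated without AD replicate 2. The heat stress factor A-2-like gene KZV28523, whose product activates such chaperone genes in Arabidopsis, had 967, 951 and 953 FPKM in AD and 193, 436 and 185 FPKM in SD (log2 fold change 1.94, SE 0.55, adjusted p = 6.5e-03), and the A-6b-like gene KZV30235 had 14, 9.92 and 15.4 FPKM in AD and 0.29, 0.53 and 0 FPKM in SD (log2 fold change 3.47, SE 0.50, adjusted p = 3.6e-06). Among the large chaperones the split turned with the scaling: 6 of 79 were up- and 12 down-regulated on the deposited values, against 12 and 5 after scaling. The deposited shares were 7.59% and 15.2%, against 10.1% and 17.4% of all genes. Chaperonin 60 subunit beta 2 of the chloroplast, KZV21503, was lower in AD with and without scaling, with 44.9, 28.9 and 36.8 FPKM in AD and 154, 115 and 124 FPKM in SD (log2 fold change -1.81, SE 0.31, adjusted p = 3.7e-05).

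Jasmonate genes had the highest share of up-regulated members among the lists counted here. Of 28 tested, 19 were up- and 3 down-regulated (20 and 2 after scaling), and the median log2 fold change was 2.57 (2.94 after scaling). Jasmonate is made in the chloroplast from linolenic acid by lipoxygenase, allene oxide synthase and allene oxide cyclase, and then in the peroxisome from 12-oxophytodienoate by a reductase. Each of these steps was represented among the up-regulated genes, with 3 of 6 lipoxygenases, 4 of 5 allene oxide synthases, 2 of 2 allene oxide cyclases and 3 of 4 12-oxophytodienoate reductases. After scaling 4 lipoxygenases were up-regulated and the other steps kept these counts. TIFY proteins, among which are the JAZ repressors that are themselves induced by jasmonate, were up-regulated in 7 of 10 cases and down-regulated in 2 (7 and 1 after scaling).

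The allene oxide cyclase gene KZV19494 had the largest fold change of the genes named by the rule, with 2377, 2714 and 1208 FPKM in AD and 0.75, 1.37 and 4.85 FPKM in SD (log2 fold change 9.42, SE 0.90, adjusted p = 9.4e-09). Its second copy KZV19006 had 2838, 2649 and 1317 FPKM in AD and 45.8, 66 and 64.4 FPKM in SD (log2 fold change 5.19, SE 0.70, adjusted p = 1.7e-06). Fresh leaves held 225 ± 23.9 FPKM and 150 ± 77.7 FPKM in F and 161 ± 49 FPKM and 163 ± 76.2 FPKM in A. FD stood at 2023 ± 1158 FPKM and 1185 ± 758 FPKM, and neither gene passed in AD/FD (log2 fold changes 0.12 and 1.06, adjusted p = 0.97 and 0.32). Allene oxide synthase KZV20216 had 571, 357 and 143 FPKM in AD and 0.7, 2.68 and 1.2 FPKM in SD (log2 fold change 7.01, SE 0.76, adjusted p = 5.9e-08). The 13S-lipoxygenase KZV29724, which makes the first oxidised fatty acid of the pathway, had 73.2, 50.6 and 25.5 FPKM in AD and 0, 0.59 and 0 FPKM in SD (log2 fold change 5.32, SE 0.68, adjusted p = 7.4e-07). In these 4 genes replicate 3 was the lowest AD library. The largest changes were named only where the AD and SD libraries did not overlap, so their separation is no further evidence. A TIFY 8 gene, KZV53903, went the other way, with 2.42, 2.79 and 3.57 FPKM in AD and 14.9, 10.2 and 12.3 FPKM in SD (log2 fold change -1.77, SE 0.28, adjusted p = 1.1e-05).

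**Figure D2:**
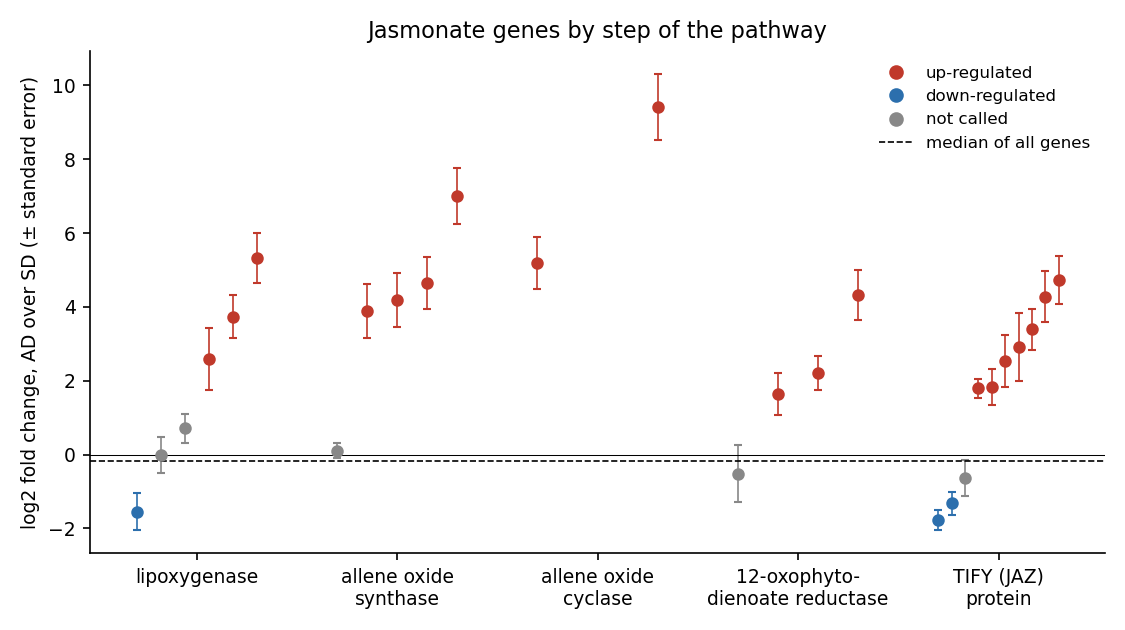
Each point is 1 of 27 jasmonate genes (all tested but a gene known only by a lipoxygenase-like domain), placed by its step in the pathway (x axis) and its log2 fold change of AD over SD (y axis), and the bars are standard errors of the limma fit. Red, blue and grey mark up-regulated, down-regulated and uncalled genes, the dashed line is the median of all genes (-0.18), and both allene oxide cyclases lie above 5.

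In SD/F, where over all genes 12.9% were up- and 22.1% down-regulated, 1 jasmonate gene was up- and 14 were down-regulated. In AD/A, where the shares were 13.1% and 26.2%, 14 were up- and 7 down-regulated. After scaling these counts were 1 and 13 in SD/F and 14 and 6 in AD/A. Some enzymes next to the pathway were higher in AD too. The phospholipase A1 gene KZV39750, of the enzyme family that frees fatty acids from membrane lipids, had 180.5, 74.4 and 116 FPKM in AD and 0.56, 2.17 and 2.69 FPKM in SD (log2 fold change 5.47, SE 0.70, adjusted p = 7.8e-07), and the phospholipase D alpha gene KZV49460 had 129.8, 139.6 and 66.9 FPKM in AD and 1.19, 2.68 and 4.14 FPKM in SD (log2 fold change 4.96, SE 0.68, adjusted p = 1.9e-06). KZV46492 encodes a cytochrome P450 94B3-like protein, the family that in Arabidopsis hydroxylates the active jasmonate conjugate, and had 32.1, 45.7 and 23.7 FPKM in AD and 0.33, 0.31 and 0.12 FPKM in SD (log2 fold change 4.75, SE 0.99, adjusted p = 3.8e-04). Over the phospholipase list 9 of 35 genes were up- and 5 down-regulated (11 and 3 after scaling).

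Pathogenesis-related genes, among them chitinases that attack fungal walls, were more often up- than down-regulated. Of 65 pathogenesis-related genes 14 were up- and 2 down-regulated (18 and 1 after scaling), and the down-regulated count was 1 when AD replicate 2, AD replicate 3, SD replicate 1 or SD replicate 3 was left out. The chitinase 5-like gene KZV58058 was listed at 0 in 2 SD libraries, with 341, 629 and 481 FPKM in AD and 0, 0 and 0.78 FPKM in SD (log2 fold change 8.60, SE 1.33, adjusted p = 1.0e-05), and its relative KZV50383 had 91.3, 162 and 136 FPKM in AD and 0.36, 1.32 and 0.78 FPKM in SD (log2 fold change 6.16, SE 0.82, adjusted p = 1.2e-06). FD stood at 127 ± 55.1 FPKM and 56.7 ± 8.34 FPKM. KZV56137, an MLP-like protein 34-like gene of the major latex protein family, had 735, 597 and 747 FPKM in AD and 3.81, 6.55 and 6.6 FPKM in SD (log2 fold change 6.73, SE 0.42, adjusted p = 1.0e-12). It was at 1496 ± 302 FPKM in A and 120.3 ± 19.1 FPKM in FD, where AD/FD was called too (log2 fold change 2.52, SE 0.42, adjusted p = 4.7e-05).

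Calcium signalling genes were more often up- than down-regulated. Of 88 calcium signalling genes 22 were up- and 11 down-regulated (32 and 6 after scaling). Calmodulin-like proteins, which carry calcium signals to their targets, led the list. CML44 (KZV46819) had 269, 175 and 130.4 FPKM in AD and 0, 3.13 and 11.7 FPKM in SD (log2 fold change 5.62, SE 0.85, adjusted p = 8.0e-06), and CML23 (KZV42081) had 116, 112 and 115 FPKM in AD and 4.38, 3.12 and 6.43 FPKM in SD (log2 fold change 4.39, SE 0.68, adjusted p = 1.0e-05). CML36 (KZV27340) was the most abundant of the list and overlapped between the groups, with 1434, 1763 and 1547 FPKM in AD and 1283, 2255 and 2046 FPKM in SD (log2 fold change -0.20, SE 0.33, adjusted p = 0.7).

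Genes of abscisic acid were found on both sides. Of 27 tested, 6 were up- and 5 down-regulated (6 and 3 after scaling). On the deposited values these were 22.2% and 18.5% of the list, against 10.1% and 17.4% of all genes. The receptor gene KZV57677 (PYL9-like) had 176, 114 and 90.6 FPKM in AD and 12.4, 26.9 and 31.4 FPKM in SD (log2 fold change 2.42, SE 0.40, adjusted p = 2.7e-05). Zeaxanthin epoxidase KZV31650, an early enzyme of abscisic acid synthesis, had 1.89, 3.19 and 0 FPKM in AD and 14.7, 14.8 and 18.3 FPKM in SD (log2 fold change -2.88, SE 0.41, adjusted p = 3.7e-06). Of the 8'-hydroxylases, which break the hormone down, copy 1 (KZV20744) was higher in AD, with 86.8, 49.5 and 53.3 FPKM in AD and 13.8, 14.2 and 9.35 FPKM in SD (log2 fold change 2.23, SE 0.30, adjusted p = 1.9e-06), and copy 2 (KZV37666) was lower, with 16.8, 9.02 and 17.1 FPKM in AD and 76.5, 92.3 and 50.3 FPKM in SD (log2 fold change -2.28, SE 0.51, adjusted p = 8.6e-04). KZV37666 stood at 0.557 ± 0.293 FPKM in FD and 0.16 ± 0.139 FPKM in F, and it was up-regulated in SD/F (log2 fold change 5.96, adjusted p = 1.5e-10), in AD/A (3.66, adjusted p = 6.8e-07) and in AD/FD (3.26, adjusted p = 2.1e-05).

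Protein phosphatases 2C, some of which restrain abscisic acid signalling and are induced by it, were up-regulated in 13 of 55 cases and down-regulated in 4 (17 and 1 after scaling). The down-regulated count was 2 without AD replicate 1 or SD replicate 1. KZV39787 (2C 51) had 288, 319 and 215 FPKM in AD and 10.8, 17.4 and 13.2 FPKM in SD (log2 fold change 4.22, SE 0.43, adjusted p = 2.3e-08), and KZV34986 (2C 37) had 529, 491 and 467 FPKM in AD and 80.7, 77.7 and 59.9 FPKM in SD (log2 fold change 2.76, SE 0.52, adjusted p = 1.2e-04). A second 2C 51 gene, KZV36442, was the most abundant of the list and did not pass, with 758, 714 and 689 FPKM in AD and 554, 691 and 564 FPKM in SD (log2 fold change 0.26, SE 0.60, adjusted p = 0.79).

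Ethylene response and DREB factors were up-regulated in 19 of 89 cases and down-regulated in 5 (25 and 4 after scaling). ABR1 (KZV58728), a repressor of abscisic acid responses in Arabidopsis, had 109, 100 and 87.5 FPKM in AD and 3.72, 8.64 and 8.44 FPKM in SD (log2 fold change 3.72, SE 0.47, adjusted p = 6.9e-07), and RAP2-13 (KZV28919) had 249, 161 and 184 FPKM in AD and 18.7, 23.6 and 19.5 FPKM in SD (log2 fold change 3.19, SE 0.44, adjusted p = 2.2e-06). The ERF4-like gene KZV28180 was lower in AD, with 2.24, 2.41 and 5.44 FPKM in AD and 86, 64.8 and 78.3 FPKM in SD (log2 fold change -4.21, SE 0.84, adjusted p = 2.5e-04). WRKY factors, many of which act in defence and senescence, were up-regulated in 11 of 61 cases and down-regulated in 4 (14 and 3 after scaling). Without SD replicate 1 the up-regulated count was 6. WRKY 70 (KZV34912) had 10.5, 12.4 and 13.3 FPKM in AD and 0, 0.45 and 0 FPKM in SD (log2 fold change 3.53, SE 0.72, adjusted p = 3.0e-04), and WRKY 32 (KZV40655) was lower, with 3.59, 2.66 and 2.52 FPKM in AD and 24.8, 20 and 17.8 FPKM in SD (log2 fold change -2.48, SE 0.27, adjusted p = 6.9e-08).

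**Figure D3:**
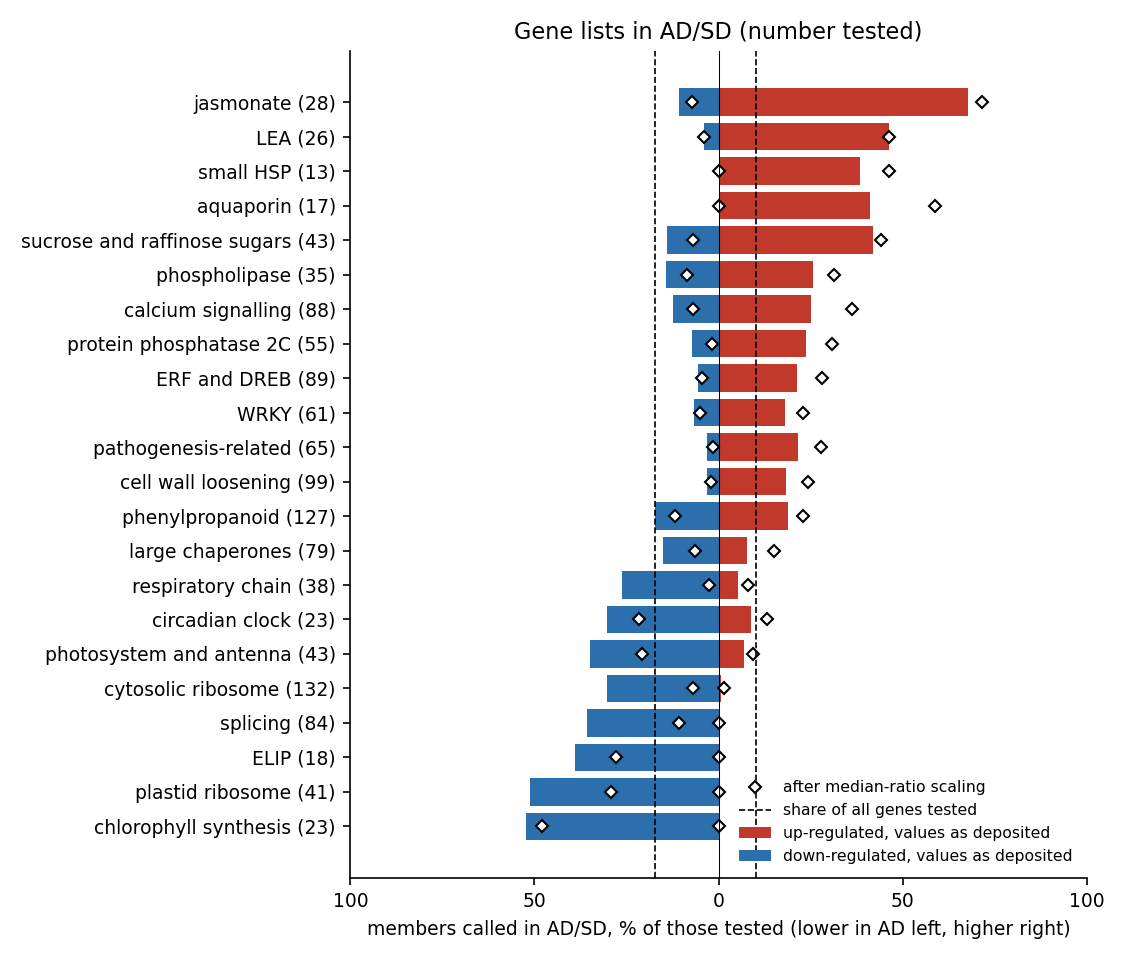
Bars give the percentage of each gene list (number of genes tested in brackets) that was up-regulated in AD/SD (red, to the right) or down-regulated (blue, to the left) on the deposited values. Diamonds give the same after median-ratio scaling. The dashed lines mark the shares of all 18736 genes on the deposited values, 10.1% up and 17.4% down. They do not apply to the diamonds: after scaling 2744 of all genes were up- and 1733 down-regulated. Jasmonate genes reach furthest to the right and chlorophyll synthesis genes furthest to the left.

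Sugar metabolism carried some of the largest differences. Of 43 genes of sucrose, raffinose-family sugars and trehalose 18 were up- and 6 down-regulated (19 and 3 after scaling). Raffinose synthase, named galactinol-sucrose galactosyltransferase in the table, transfers galactose from galactinol to sucrose. Its gene KZV32937 had 2136, 2439 and 2144 FPKM in AD and 17.7, 36 and 35.9 FPKM in SD (log2 fold change 6.25, SE 0.73, adjusted p = 2.0e-07). The gene next to it by locus number, KZV32938, had 849.9, 1109 and 1085 FPKM in AD and 9.54, 21.5 and 20.7 FPKM in SD (log2 fold change 5.87, SE 0.72, adjusted p = 4.4e-07). Both were under 40 FPKM in every SD library and at 4479 ± 523 FPKM and 3341 ± 453 FPKM in FD. Another gene of the same product, KZV27435, was the reverse, with 260.3, 222 and 271 FPKM in AD and 810.1, 1001 and 757 FPKM in SD (log2 fold change -1.76, SE 0.51, adjusted p = 7.6e-03) and 28.6 ± 10.2 FPKM in FD.

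Galactinol synthase 1-like KZV14491, which supplies the galactinol, was the most abundant sugar gene and did not pass, with 6128, 3629.7 and 2365 FPKM in AD and 7664, 7403 and 9199.6 FPKM in SD (log2 fold change -1.10, SE 0.44, adjusted p = 0.053). Fresh leaves held more, 14135 ± 2149.5 FPKM in F and 10479 ± 2462 FPKM in A. It passed when AD replicate 1 was left out, at a log2 fold change of -1.46. The acid invertase-type gene KZV14483, whose product cleaves sucrose in the vacuole or wall, had 63.3, 53.9 and 43.8 FPKM in AD and 0.3, 1.63 and 0.53 FPKM in SD (log2 fold change 4.96, SE 0.44, adjusted p = 2.5e-09).

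Water channels were higher in AD where they passed. Of 17 genes on the aquaporin list 7 were up- and 0 down-regulated (10 and 0 after scaling). At an unadjusted p under 0.05 by limma, 0 were lower by at least 1 on the log2 scale. A tip41-like gene among the 17 was matched by its name alone and is not known as a channel. The plasma membrane channel PIP2-4-like gene KZV35100 had 201, 181 and 222 FPKM in AD and 0.62, 0.76 and 1.35 FPKM in SD (log2 fold change 6.74, SE 0.63, adjusted p = 5.6e-09). In A it stood at 451 ± 163 FPKM and in F at 307 ± 108 FPKM, and AD lay much nearer to these fresh levels than SD did. PIP1-2 (KZV43302) had 739.9, 984 and 1134 FPKM in AD and 365, 397 and 337 FPKM in SD (log2 fold change 1.36, SE 0.39, adjusted p = 7.2e-03), and PIP2-7 (KZV41124) had 18.8, 24.5 and 15.5 FPKM in AD and 3.48, 1.87 and 5.57 FPKM in SD (log2 fold change 2.21, SE 0.53, adjusted p = 1.7e-03). The means in F were 1057 FPKM for KZV43302 and 484 FPKM for KZV41124, so KZV41124 stayed far below fresh leaves in AD too. Over the list 1 gene was up- and 9 were down-regulated in SD/F, and 1 and 5 in AD/A. After scaling these were 1 and 9, and 2 and 5. The shares of all genes were 12.9% and 22.1% in SD/F and 13.1% and 26.2% in AD/A.

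Of 99 cell wall loosening genes 18 were up- and 3 down-regulated (24 and 2 after scaling), and 5 were down-regulated without SD replicate 1. Xyloglucan endotransglucosylases cut and rejoin the chains that tie cellulose fibrils together. Their gene KZV19427 had 240.4, 265 and 252 FPKM in AD and 1.46, 3.44 and 2.96 FPKM in SD (log2 fold change 6.17, SE 0.89, adjusted p = 3.7e-06), and KZV40225 had 943, 1160.3 and 1733 FPKM in AD and 22.7, 32.8 and 59.1 FPKM in SD (log2 fold change 5.09, SE 0.65, adjusted p = 7.1e-07). The pectinesterase 2.1-like gene G000147 had 136, 279 and 199 FPKM in AD and 0.8, 0.27 and 0.72 FPKM in SD (log2 fold change 6.96, SE 1.20, adjusted p = 4.3e-05). KZV40225 was low in fresh leaves (6.17 ± 3.76 FPKM in F), whereas G000147 was at 77.6 ± 54.5 FPKM in F and 235 ± 107 FPKM in A.

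**Figure D4:**
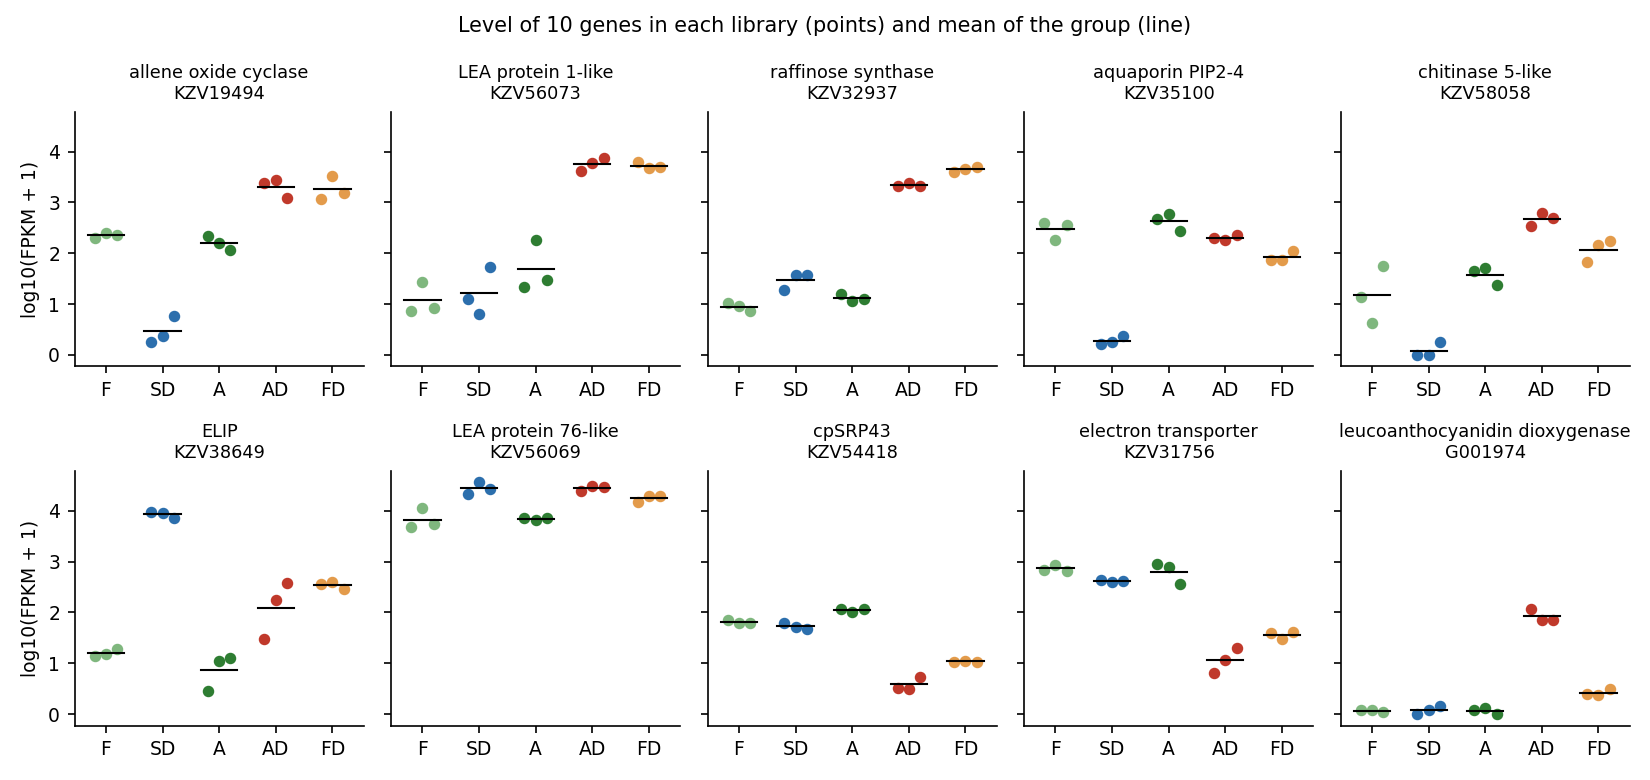
Each panel shows 1 gene, with a point for each library of fresh (F), slowly dried (SD), acclimated fresh (A), rapidly dried acclimated (AD) and rapidly dried non-acclimated leaves (FD), on a log10(FPKM + 1) axis. Horizontal lines are means on this axis. The AD points lie above all SD points for the upper 5 genes and leucoanthocyanidin dioxygenase, below them for ELIP, cpSRP43 and the electron transporter, and among them for LEA protein 76-like. Genes of the largest changes were named only where AD and SD libraries did not overlap, so this separation is partly set by the choice.

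Genes of chlorophyll synthesis were lower in AD where they passed. Of 23 chlorophyll synthesis genes 0 were up- and 12 down-regulated (0 and 11 after scaling). By at least 1 on the log2 scale, 0 were higher at an unadjusted p under 0.05 by limma. The list was matched by name and holds a protochlorophyllide-dependent translocon component (KZV38352), which is not named as an enzyme of synthesis. It is among the 12 and among the 11 after scaling. Porphobilinogen synthase KZV16553, an early enzyme and the most abundant of the list, had 101.1, 95.8 and 84.7 FPKM in AD and 285, 194 and 303 FPKM in SD (log2 fold change -1.44, SE 0.25, adjusted p = 4.2e-05). Protochlorophyllide oxidoreductase C (KZV52218), which makes chlorophyllide in the light, had 39, 15 and 4.97 FPKM in AD and 159, 49.6 and 113 FPKM in SD (log2 fold change -2.64, SE 0.47, adjusted p = 6.7e-05). The AD and SD libraries did not overlap for either gene.

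Chlorophyll breakdown was split. Pheophytinase KZV31980 had 979, 1099 and 887 FPKM in AD and 233, 245 and 329 FPKM in SD (log2 fold change 1.89, SE 0.30, adjusted p = 1.6e-05), and STAY-GREEN KZV42127, which removes the magnesium of chlorophyll, had 586, 482 and 474 FPKM in AD and 155, 151 and 188 FPKM in SD (log2 fold change 1.64, SE 0.39, adjusted p = 1.4e-03). Chlorophyllase-2 (KZV25950) was lower in AD, with 2.58, 3.45 and 1.96 FPKM in AD and 64.7, 39.3 and 35.9 FPKM in SD (log2 fold change -3.67, SE 0.58, adjusted p = 1.3e-05). In all, 3 of 12 were up- and 2 down-regulated (6 and 1 after scaling), and without AD replicate 3 the latter was 1.

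Photosystem and antenna genes were low in both dried states. In SD/F 34 of 43 were down-regulated and in AD/A 38 (34 and 37 after scaling). Over all genes 22.1% were down-regulated in SD/F and 26.2% in AD/A on the deposited values. Between the dried states 3 were up- and 15 down-regulated (4 and 9 after scaling). These counts rested on single libraries: without AD replicate 3 they were 8 and 9, and without SD replicate 1 or SD replicate 3 the down-regulated genes were 10 and 9.

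Antenna protein gene KZV50324 had 2939, 1890.3 and 996 FPKM in AD and 8336, 5514 and 8941 FPKM in SD (log2 fold change -2.07, SE 0.57, adjusted p = 5.2e-03), and the CP24 gene KZV22756 had 90.7, 62.6 and 43.7 FPKM in AD and 432, 178 and 426 FPKM in SD (log2 fold change -2.33, SE 0.49, adjusted p = 4.6e-04). The photosystem II 22 kDa protein gene KZV16554, whose product dissipates excess light as heat, was the opposite, with 833, 343 and 61.5 FPKM in AD and 44, 21.6 and 35.8 FPKM in SD (log2 fold change 2.97, SE 0.65, adjusted p = 7.1e-04). In each of these genes AD replicate 1 was the highest and AD replicate 3 the lowest of the group. The AD libraries also spread widely for the small subunit of rubisco, KZV14925, with 13415, 3963 and 1442 FPKM in AD and 1489, 814 and 1406 FPKM in SD (log2 fold change 1.83, SE 0.54, adjusted p = 8.9e-03), where AD replicate 3 lay within the range of SD. Without AD replicate 1 or SD replicate 2 that call was lost, at log2 fold changes of 1.00 and 1.55. In a fit of the 6 compared libraries alone KZV14925 and KZV16554 were not called. G002182, a chlorophyll a/b binding protein gene, had 1474, 1096 and 756 FPKM in AD and 122, 59.6 and 207 FPKM in SD (log2 fold change 3.21, SE 0.64, adjusted p = 2.6e-04) and was listed at 0 in all 3 FD libraries.

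Genes of organelle ribosomes were lower in AD where they passed. Of 41 genes of 30S and 50S ribosomal proteins, which the list does not split between plastid and mitochondrion, 0 were up- and 21 down-regulated (0 and 12 after scaling). At an unadjusted p under 0.05 by limma, 0 were higher by at least 1 on the log2 scale. The L31 gene of the chloroplast, KZV28860, had 25.3, 17.9 and 16.2 FPKM in AD and 97.1, 100.1 and 93.3 FPKM in SD (log2 fold change -2.26, SE 0.34, adjusted p = 7.5e-06). The 43 kDa subunit of the chloroplast signal recognition particle (cpSRP43, KZV54418), which delivers antenna proteins to the thylakoid, had 2.3, 2.1 and 4.46 FPKM in AD and 60.6, 49.7 and 46.5 FPKM in SD (log2 fold change -3.79, SE 0.32, adjusted p = 1.4e-09). KZV31756, annotated as an electron transporter without a further name, had 5.29, 10.7 and 19.4 FPKM in AD and 442, 392.1 and 406 FPKM in SD (log2 fold change -5.18, SE 0.57, adjusted p = 6.9e-08). KZV42047, a light-regulated protein gene, had 188, 273 and 312 FPKM in AD and 5613, 3383 and 5109.8 FPKM in SD (log2 fold change -4.18, SE 1.01, adjusted p = 1.8e-03). It was up-regulated in SD/F (395 ± 299.8 FPKM in F, log2 fold change 3.79, adjusted p = 3.1e-03), whereas KZV31756 was high in F (741 ± 111 FPKM) and was not called in SD/F (log2 fold change -0.83, adjusted p = 0.25).

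Cytosolic ribosome and splicing genes were down-regulated more often than up-regulated, by amounts that were smaller after scaling. Of 132 cytosolic ribosomal protein genes 1 was up- and 40 were down-regulated, with a median of -0.73, against 2 and 9 with a median of -0.31 after scaling. L21-1 (KZV48530) had 84, 83 and 71.5 FPKM in AD and 265, 232 and 291 FPKM in SD (log2 fold change -1.71, SE 0.27, adjusted p = 1.2e-05). The up-regulated member was an L22-2-like gene, KZV42028, with 93, 53.1 and 30.5 FPKM in AD and 10.1, 9.03 and 9.09 FPKM in SD (log2 fold change 2.38, SE 0.51, adjusted p = 5.7e-04), and FD was at 308 ± 15.4 FPKM. The up-regulated count was 2 without AD replicate 3 or SD replicate 3. Of 84 splicing genes 0 were up- and 30 down-regulated (0 and 9 after scaling). At an unadjusted p under 0.05 by limma, 0 were higher by at least 1 on the log2 scale. The helicase of the U5 particle, KZV52174, had 19.6, 25.2 and 31.5 FPKM in AD and 100.4, 125 and 87.6 FPKM in SD (log2 fold change -2.0, SE 0.34, adjusted p = 3.0e-05). It stood at 26.1 ± 8.95 FPKM in F and was up-regulated in SD/F (log2 fold change 1.99, adjusted p = 1.5e-05) and not called in AD/A (0.28, adjusted p = 0.52).

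The split of the respiratory chain list turned with scaling. Of 38 respiratory chain genes 2 were up- and 10 down-regulated on the deposited values, against 3 and 1 after scaling, and 1 was up-regulated without SD replicate 1. Alternative oxidase 1B (KZV31497), which lets electrons bypass the proton-pumping complexes, was higher in AD under both, with 171, 73.3 and 107 FPKM in AD and 8.35, 26.9 and 25.9 FPKM in SD (log2 fold change 2.54, SE 0.59, adjusted p = 1.3e-03). Of 37 proteasome genes 0 were up- and 4 down-regulated (0 and 1 after scaling). The 10.8% down-regulated on the deposited values lay below the 17.4% of all genes. By at least 1 on the log2 scale, 0 were higher at an unadjusted p under 0.05 by limma.

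Flavonoid genes held large differences in both directions. Leucoanthocyanidin dioxygenase G001974, an enzyme of anthocyanin synthesis, had 117, 70.7 and 70.7 FPKM in AD and 0, 0.19 and 0.45 FPKM in SD (log2 fold change 6.14, SE 0.56, adjusted p = 3.1e-09). It was at 1.66 ± 0.407 FPKM in FD and 0.17 ± 0.0608 FPKM in F, and AD/FD was called (log2 fold change 5.00, SE 0.56, adjusted p = 3.7e-08). A was at 0.167 ± 0.156 FPKM, and the 4 other states all stayed below 3 FPKM. The anthocyanidin 3-O-glucosyltransferase 2-like gene KZV16604 was the reverse, with 1.83, 1.61 and 1.22 FPKM in AD and 26.9, 36.2 and 22.8 FPKM in SD (log2 fold change -3.52, SE 0.40, adjusted p = 1.4e-07). Over 127 phenylpropanoid and flavonoid genes 24 were up- and 22 down-regulated (29 and 15 after scaling). The shares on the deposited values were 18.9% and 17.3%, against 10.1% and 17.4% of all genes.

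Of 65 genes on the nitrate list 10 were up- and 5 down-regulated (16 and 2 after scaling). On the deposited values these were 15.4% and 7.69% of the list, against 10.1% and 17.4% of all genes. The up-regulated count was 16 without AD replicate 3, and the down-regulated count was 3 without AD replicate 2. Transporters among the named genes went both ways. The high affinity transporter 2.4-like gene KZV22686 had 12.8, 14.6 and 9.07 FPKM in AD and 0.41, 0.42 and 0 FPKM in SD (log2 fold change 3.36, SE 0.35, adjusted p = 3.0e-08), whereas the transporter 1.1-like gene KZV42788, which also senses nitrate in Arabidopsis, had 28.7, 22.8 and 29.4 FPKM in AD and 229, 281 and 186 FPKM in SD (log2 fold change -3.05, SE 0.48, adjusted p = 1.5e-05). Nitrite reductase KZV54009 had 20.8, 58.6 and 87.7 FPKM in AD and 323, 287 and 285 FPKM in SD (log2 fold change -2.62, SE 0.46, adjusted p = 6.2e-05). F stood at 355 ± 106 FPKM for KZV42788 and 116 ± 51.5 FPKM for KZV54009.

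Auxin and cytokinin genes were called in both directions. Of 86 auxin genes 12 were up- and 14 down-regulated (16 and 9 after scaling), shares near those of all genes. Of 31 cytokinin genes 4 were up- and 4 down-regulated (5 and 2 after scaling), and the up-regulated count was 2 when any of the 6 libraries but AD replicate 3 was left out. The auxin repressor gene IAA13-like (KZV32959) had 7.63, 5.6 and 6.59 FPKM in AD and 67.5, 51.8 and 54.1 FPKM in SD (log2 fold change -2.95, SE 0.39, adjusted p = 1.4e-06), and the cytokinin response regulator gene ARR11-like (KZV17794) had 2.64, 3.56 and 4.58 FPKM in AD and 48.6, 41.7 and 28.4 FPKM in SD (log2 fold change -3.13, SE 0.45, adjusted p = 4.1e-06). The evening light receptor gene of the clock, adagio protein 3 (KZV32447), had 6.99, 1.75 and 2.4 FPKM in AD and 54.2, 23.2 and 26 FPKM in SD (log2 fold change -2.97, SE 0.73, adjusted p = 2.0e-03), and REVEILLE 6 (KZV36465) had 16.2, 11.5 and 11.4 FPKM in AD and 55.2, 58.4 and 79.7 FPKM in SD (log2 fold change -2.22, SE 0.40, adjusted p = 8.4e-05). Of 23 clock genes 2 were up- and 7 down-regulated (3 and 5 after scaling). The up-regulated count was 0 without AD replicate 3 or SD replicate 1, and 1 without AD replicate 1, AD replicate 2 or SD replicate 3. The time of day of sampling is not stated in any source read.

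Genes of DNA methylation and histone deacetylation were read because the study followed them up, so they are not an independent choice. CMT3 (KZV43016), the methyltransferase that maintains CHG methylation in Arabidopsis, had 5.37, 10.1 and 6.19 FPKM in AD and 0, 0 and 0.33 FPKM in SD (log2 fold change 2.86, SE 0.76, adjusted p = 4.0e-03), and a further cytosine-5 methyltransferase gene, KZV43376, had 3.21, 2.85 and 2.8 FPKM in AD and 0.71, 0.5 and 0.77 FPKM in SD (log2 fold change 1.25, SE 0.40, adjusted p = 0.015). Both were up-regulated at levels near or below 10 FPKM, and with a pseudocount of 0.1 the call of KZV43376 was lost at a log2 fold change of 2.02. The DNA glycosylase KZV31242, of the family that removes methylated cytosine, had 9.2, 3.37 and 4.56 FPKM in AD and 11.5, 7.31 and 9.82 FPKM in SD and did not pass (log2 fold change -0.73, SE 0.40, adjusted p = 0.16). Histone deacetylase 8 (KZV52430) had 9.85, 12.4 and 8.51 FPKM in AD and 26.1, 30.9 and 30.6 FPKM in SD (log2 fold change -1.44, SE 0.42, adjusted p = 7.7e-03), a call that was lost after scaling at a log2 fold change of -1.03.

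Each dried state was also read against its own fresh starting state, AD against A and SD against F, in the same fit. Between the starting states few genes were called, with 11 genes up- (0.0587%) and 11 down-regulated in A/F. The response AD/A exceeded SD/F by at least 1 on the log2 scale, at an adjusted p of at most 0.05, in 1328 genes (7.09%), and fell short of it in 2092 (11.2%). After scaling these were 1801 and 1410. Jasmonate genes were higher by this measure in 13 of 28 cases and lower in 2 (13 and 1 after scaling). Chlorophyll synthesis genes were higher in 0 and lower in 12 of 23 cases (0 and 9 after scaling). Small heat shock protein genes, up-regulated in AD/SD where they passed, were higher in 0 and lower in 1 of 13 cases (0 and 0 after scaling). This measure and AD/SD share the AD and SD libraries.

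Over all genes 12.9% were up-regulated in SD/F and 13.1% in AD/A. For ELIP genes, with the 3 that share all their values entered as 3, 17 of 18 were up-regulated in SD/F and 15 in AD/A. In 4 the rise was smaller in AD/A (0 after scaling). KZV38649 rose by 9.08 in SD/F (SE 1.25) and by 4.08 in AD/A (SE 1.25), a difference of -5.0 (SE 1.76, adjusted p = 0.045) that was not called after scaling. For LEA genes 18 and 22 of 26 were up-regulated in SD/F and AD/A, and the response in AD/A was larger in 6 and smaller in 2 (7 and 2 after scaling). Allene oxide cyclase KZV19494 changed by -6.28 in SD/F (SE 0.90) and by 3.66 in AD/A (SE 0.90), a difference of 9.94 (SE 1.28, adjusted p = 5.6e-06). The aquaporin KZV35100 changed by -7.28 in SD/F and by -1.10 in AD/A, a difference of 6.18 (SE 0.89, adjusted p = 2.3e-05).

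The leaf label was checked against markers of cell types, as the sum of FPKM over each list. Mesophyll genes summed to 3986 to 21422 in AD and 7972 to 13350 in SD, against 90040 to 148240 in F. Of 16, 2 were up- and 5 down-regulated (2 and 3 after scaling). The down-regulated count was 3 without AD replicate 3, SD replicate 1 or SD replicate 3, and the up-regulated count was 1 without AD replicate 1 or SD replicate 2. Xylem and secondary wall genes summed to 523 to 652 in AD and 104 to 191 in SD. Of 20, 5 were up- and 1 down-regulated (6 and 0 after scaling), and 3 were up-regulated without SD replicate 1. Epidermis and cuticle genes summed to 2204 to 3810 in AD and 902 to 1718 in SD. Of 46, 10 were up- and 5 down-regulated (10 and 2 after scaling). These were 6 up-regulated without AD replicate 2, AD replicate 3 or SD replicate 2, 5 up- and 3 down-regulated without SD replicate 1, and 3 down-regulated without AD replicate 1. The xylem and epidermis sums did not overlap between the states, and their part in the results was not tested. Phloem genes summed to 80.9 to 122 in AD and 62.9 to 97.5 in SD, and root genes to 75.2 to 93.9 and 98.6 to 131. Of the 7 guard cell genes matched, 3 were listed at 0 in all 6 libraries and 6 were below 1 FPKM in all 6, with sums of 0.88 to 1.13 in AD and 1.63 to 2.06 in SD, so the label leaf was not checked for that cell type.

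Promoter methylation was measured by whole-genome bisulfite sequencing in 1 library per state, a pool of replicates, so that it carries no replicate check and no test. Values are the share of methylated reads in promoters, read here in percent. Over 18552 promoters listed for both states the median CG methylation was 58.0% in AD and 59.6% in SD. In CHG it was 45.8% and 46.6%, and in CHH, where H is any base but G, 12.5% and 12.2%. The median difference of AD minus SD was -1.6 percentage points in CG, -0.63 in CHG and 0.4 in CHH.

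By at least 20 percentage points, CG methylation was higher in AD at 365 promoters and lower at 585, which together are 5.12% of the promoters. In CHG 278 were higher and 229 lower, and in CHH 0.846% passed in either direction. Within 10 points lay 81.9% of promoters in CG, 88.5% in CHG and 95.6% in CHH. The read depth behind a promoter is not used here, so its counting error is not given. The FPKM printed beside the methylation values matched the gene 1 locus tag earlier in the expression table (Pearson's r 0.93 across promoters, against 0.09 at the same tag), so no promoter is tied to a gene by name and methylation is not set against expression.

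**Figure D5:**
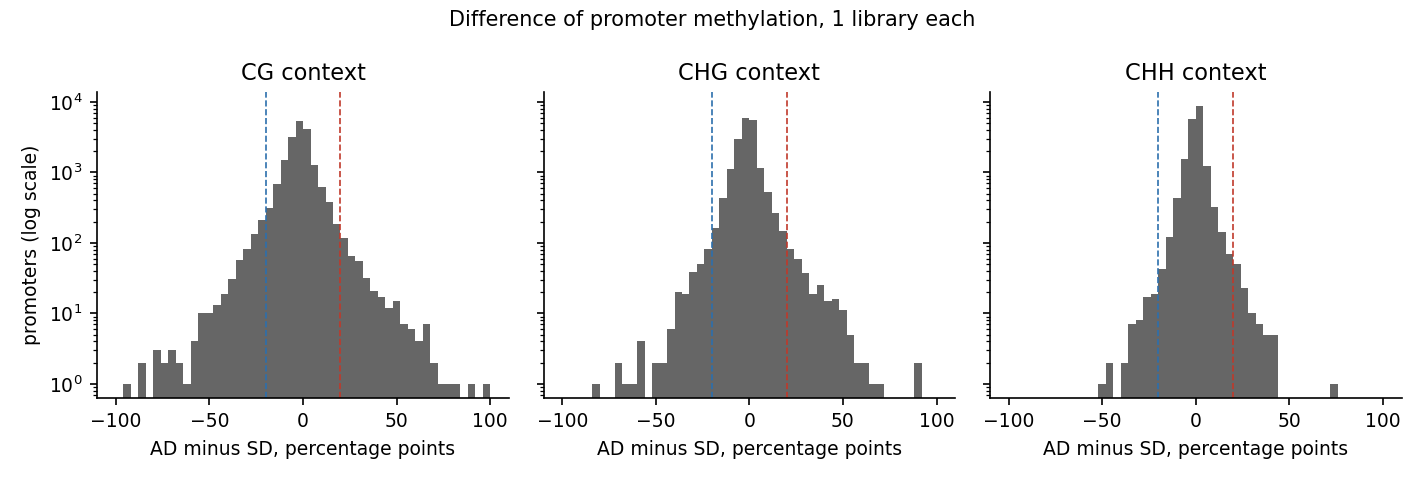
Histograms of the difference of AD minus SD in percentage points (x axis, bins of 4 points) over 18552 promoters in the CG, CHG and CHH contexts, with the number of promoters on a log-scaled y axis. Dashed lines mark 20 points in either direction, and most promoters lie between them, with 365 above and 585 below in CG.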

How the data were processed

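RNA-seq was analysed for 3 AD and 3 SD libraries, in a fit of all 39 libraries (13 groups of 3), and whole-genome bisulfite sequencing for 1 AD and 1 SD library. The authors aligned reads to the genome with HISAT, rebuilt transcripts with StringTie 1.0.4, mapped reads to transcripts with Bowtie2 2.2.5 and deposited FPKM estimated by RSEM. FPKM carry no read counts, and the sequencing yield that the study states is not used here. BSMAP was used for bisulfite reads, and the authors deposited the fraction of methylated reads per promoter, which was multiplied into percent. Genes that reached 1 FPKM in 3 or more libraries were kept. log2(FPKM + 1) was fitted with limma 3.58.1 in R 4.3.3 (eBayes with trend). Fold changes on this scale understate those of low genes. Scripts were tested on simulated data. Replicates pool leaves of several plants, so p-values measure the spread between these pools. Gene lists are text patterns on product names.

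Members and lists were chosen with earlier results of these data known. Named genes were the 15 largest called changes in each direction with a named product and at least 10 FPKM, up to 3 called genes in each direction and the most abundant member of each list, genes the study names, and the 5 most abundant genes, from which a selection is printed. Alternatives were a pseudocount of 0.1, other filters, median-ratio scaling over 12126 genes, a replicate block, a fit of the compared libraries alone and leaving out each library. Gene positions were used for 1 group of LEA genes, and 10 other methylation tables are not used here.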

Additional observations from a re-analysis of the deposited data

Results flagged for a closer look

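The response to drying differed between the second, rapid and the first, slow dehydration by the test of the difference itself (AD/A minus SD/F, limma over 18736 genes) in the genes below. They are the 5 largest in each direction among genes with a named product and a mean of at least 10 FPKM in AD or SD. Only genes whose AD and SD libraries did not overlap were eligible. Values are differences of log2 fold changes.

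The allene oxide cyclase KZV19494 had a difference of 9.94 (SE 1.28, adjusted p = 5.6e-06). The xyloglucan endotransglucosylase KZV19427 had a difference of 8.28 (SE 1.25, adjusted p = 4.1e-05), and stood at 253 ± 12.5 FPKM in AD, 31.9 ± 18.9 FPKM in A, 2.62 ± 1.03 FPKM in SD and 207 ± 195 FPKM in F. KZV22124, a Pol polyprotein gene of a TNT 1-94 type transposon, had a difference of 7.76 (SE 1.91, adjusted p = 4.7e-03), with 52.4 ± 27.7 FPKM in AD, 0.253 ± 0.225 FPKM in A, 8.81 ± 10.2 FPKM in SD and 53.7 ± 51.2 FPKM in F. The omega-3 desaturase gene KZV56578, of the family that makes linolenic acid, had a difference of 7.64 (SE 1.38, adjusted p = 2.9e-04), with 187 ± 94.8 FPKM in AD, 25.2 ± 14.5 FPKM in A, 0.543 ± 0.359 FPKM in SD and 53.5 ± 48.3 FPKM in F. The chitinase KZV58058 had a difference of 7.25 (SE 1.88, adjusted p = 6.8e-03).

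In the other direction, the prolyl endopeptidase-like gene KZV20103 had a difference of -5.78 (SE 1.04, adjusted p = 2.8e-04), with 6.3 ± 1.09 FPKM in AD, 26.2 ± 30.9 FPKM in A, 86.7 ± 64 FPKM in SD and 3.39 ± 4.21 FPKM in F. KZV36369, a nuclear factor Y subunit A-7-like gene, had a difference of -5.39 (SE 1.03, adjusted p = 4.7e-04), with 93.9 ± 18.5 FPKM in AD, 17.1 ± 7.47 FPKM in A, 413 ± 89.1 FPKM in SD and 0.827 ± 0.654 FPKM in F. It rose in both dried states, and by more in SD/F (7.86, adjusted p = 5.4e-10) than in AD/A (2.48, adjusted p = 5.7e-03). The ELIP gene KZV38649 had a difference of -5.0 (SE 1.76, adjusted p = 0.045) and lost its call after scaling. The electron transporter gene KZV31756 had a difference of -4.95 (SE 0.80, adjusted p = 9.5e-05). KZV17372, an mRNA-decapping enzyme-like gene, was listed at 0 in all 3 AD libraries and had a fitted difference of -4.93 (SE 1.12, adjusted p = 2.4e-03), which depends on the pseudocount.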

How the results depend on the processing

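The numbers of genes called in AD/SD (1886 up, 3253 down) and in AD/A minus SD/F (1328 and 2092) stayed within 1.5 times under each alternative, with the exception of the down-regulated genes after median-ratio scaling, which fell to 1733. A pseudocount of 0.1 gave 2218 up and 3433 down in AD/SD, no filter 1711 and 3119, a filter within the comparison 1894 and 3258, and the compared libraries alone 2191 and 3175. Leaving out 1 library gave 1501 to 1695 up and 2768 to 3274 down in AD/SD, and 1041 to 1319 and 1424 to 2245 for AD/A minus SD/F. Of the 91 genes named here, 81 had the same call under all 12 alternatives, 7 lost it under at least 1, 2 of them after scaling, 3 were called under an alternative alone and 0 were reversed. The cause was not tested. With a replicate block AD/SD gave 1891 up and 3243 down and AD/A minus SD/F 1316 and 2092. Replicate numbers did not pair AD with SD libraries: deviations from the group means correlated at -0.062, -0.056 and -0.053 for the same number and at 0.014 to 0.045 for other numbers. At a minimum of 10 percentage points 1170 promoters were higher in AD in CG methylation and 2197 lower, and at 30 points 149 and 187. Levels near 0 FPKM, FPKM that carry no read counts and a single bisulfite library per state limit what these data can show.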
